A study of Mus musculus with 9 samples.

Results

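The tight junction and epithelial polarity genes measured here were the claudins, occludin and other junction membrane proteins, the scaffold proteins beneath the junction, and the subunits of the Crumbs, Par and Scribble polarity complexes with their relatives. Members were taken by gene symbol alone, as all probes whose symbol is *Cldn* followed by a number, *Tjp* followed by a number, *Crb1* to *Crb3*, *Pard3* or *Pard6* with any suffix, *Llgl1*, *Llgl2*, *Dlg1* to *Dlg5*, *Mpp1* to *Mpp7*, *Ocln*, *F11r*, *Cgn*, *Inadl*, *Cxadr* or *Scrib*. The rule found 61 of 25697 probes, under 43 of 18120 gene symbols, and 12 of the 43 genes had several probes. RNA was compared between 3 tissue groups of E10.5 embryos of the outbred CD-1 strain, with 3 arrays per group, each holding 1 pool of RNA. The 3 groups were dissected from the same 3 litters. The otic vesicle (OV) group held dissected and pooled vesicles, the periotic group held the tissue around them, with mesenchyme and hindbrain, and the embryo-minus-otic group held whole embryos without the otic region. No mutation or treatment was used in any group. RNA was amplified, labelled with biotin and hybridized to Illumina MouseRef-8 v2.0 arrays of 1 colour.

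In an epithelium, tight junctions seal neighbouring cells together near their apical side. Claudins and occludin span the membrane there, and scaffold proteins of the Tjp (zonula occludens) family tie them to the actin cytoskeleton. The Crumbs and Par complexes mark the apical domain and the junctional belt, while the Scribble module of Scribble, Dlg and Lgl proteins marks the basolateral side. The OV is a closed epithelial sac that folds in from the head ectoderm and later forms the whole membranous inner ear, in which several claudins are known as deafness genes. The periotic tissue holds the neuroepithelium of the hindbrain, which does not form typical tight junctions after neural tube closure, and mesenchyme, which is not an epithelium. The embryo-minus-otic tissue holds other epithelia, among them surface ectoderm and gut endoderm.

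Promoter sequence was examined because many members were higher in OV together, and it gives the letters around their start sites. RefSeq promoter windows of the build GRCm38.p6, running from 250 bases before to 50 bases after an annotated start, were at hand for 33 of the 43 member genes. In these windows 5 motifs were searched on both strands. They were CAGGTG, an E-box form known to be bound by repressors of the Snail and Zeb families that act on junction genes, AACCNGTT, a grainyhead-type motif, GCCNNNGGC, an AP-2-type motif, CCGCCC, a GC box, and TATAAA. The E-box is shown because it had the widest gap between members that were higher in OV and the other members, so it was chosen after its matches were seen. Among the 11 genes with a window that were higher in OV than in either non-otic group, 9 (81.8%) held CAGGTG, against 7 of the other 22 member genes (31.8%) and 22.6% of the 27025 genes of the promoter table. CCGCCC was found in 90.9% of the first set, 63.6% of the second and 38.2% of all genes. GCCNNNGGC was found in 45.5%, 31.8% and 18.5%, AACCNGTT in 0%, 4.55% and 2.35%, and TATAAA in 0%, 9.09% and 15.7%. Of 34 E-box matches in member windows, 1 overlapped another of the motifs, in *Cldn3*. Several windows of a gene can overlap, so a match can be counted more than once, and a match is a description of the letters and not a binding site.

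For each of the 4 genes that were higher in OV by at least 1 log2 unit against both non-otic groups, 1 window follows. It is read 5′ to 3′ along its gene, with CAGGTG, or its reverse complement, in capitals. *Cldn6* lies at chr17:23679115-23679414 on the forward strand and *Cldn4* at chr5:134946885-134947184 on the reverse strand. *Cldn3* lies at chr5:134985964-134986263 on the forward strand and *Ocln* at chr13:100552449-100552748 on the reverse strand.
Cldn6: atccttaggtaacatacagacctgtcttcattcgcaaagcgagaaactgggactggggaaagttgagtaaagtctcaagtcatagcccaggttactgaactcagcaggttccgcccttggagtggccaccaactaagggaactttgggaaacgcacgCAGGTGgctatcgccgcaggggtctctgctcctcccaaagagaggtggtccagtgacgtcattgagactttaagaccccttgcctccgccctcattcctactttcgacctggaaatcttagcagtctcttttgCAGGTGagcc
Cldn4: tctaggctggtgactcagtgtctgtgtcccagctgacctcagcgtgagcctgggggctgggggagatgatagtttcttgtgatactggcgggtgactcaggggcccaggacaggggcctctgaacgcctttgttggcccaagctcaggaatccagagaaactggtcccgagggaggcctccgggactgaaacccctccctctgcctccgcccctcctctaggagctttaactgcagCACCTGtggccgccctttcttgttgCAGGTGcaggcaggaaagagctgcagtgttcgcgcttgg
Cldn3: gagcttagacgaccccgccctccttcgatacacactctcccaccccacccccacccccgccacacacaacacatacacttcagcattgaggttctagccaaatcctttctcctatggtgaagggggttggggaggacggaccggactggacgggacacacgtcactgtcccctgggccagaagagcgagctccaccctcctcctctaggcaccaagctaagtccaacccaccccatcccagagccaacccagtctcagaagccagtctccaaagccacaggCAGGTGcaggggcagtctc
Ocln: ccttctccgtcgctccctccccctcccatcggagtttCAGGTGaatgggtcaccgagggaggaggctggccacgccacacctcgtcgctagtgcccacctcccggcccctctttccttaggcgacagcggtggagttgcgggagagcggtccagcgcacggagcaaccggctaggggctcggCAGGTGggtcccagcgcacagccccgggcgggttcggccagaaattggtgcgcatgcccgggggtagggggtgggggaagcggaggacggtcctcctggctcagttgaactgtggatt

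The matches in *Cldn6* began at positions -93 and 40 from the annotated start, those in *Cldn4* at -14, on the opposite strand, and 11, and the match in *Cldn3* at 31. In this window of *Ocln* they began at -213 and -68. *Ocln* had a further window, not printed, at chr13:100552669-100552968, with a match at 7 from its own start. That match and the one at -213 are the same site. *Cldn4* and *Cldn3* are next to each other among the protein-coding genes of the reference table, as are *Cldn6* and *Cldn9*, and all 4 were higher in OV than in either non-otic group. *Cldn1* and *Cldn16* are also neighbours, and *Cldn16* was above background on no array. *Cldn17* and *Cldn8* are neighbours too, and neither was above background on any array. *Cldn1* and *Cldn10* had windows with no CAGGTG, and *Cldn9* had no window.

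**Figure D1:**
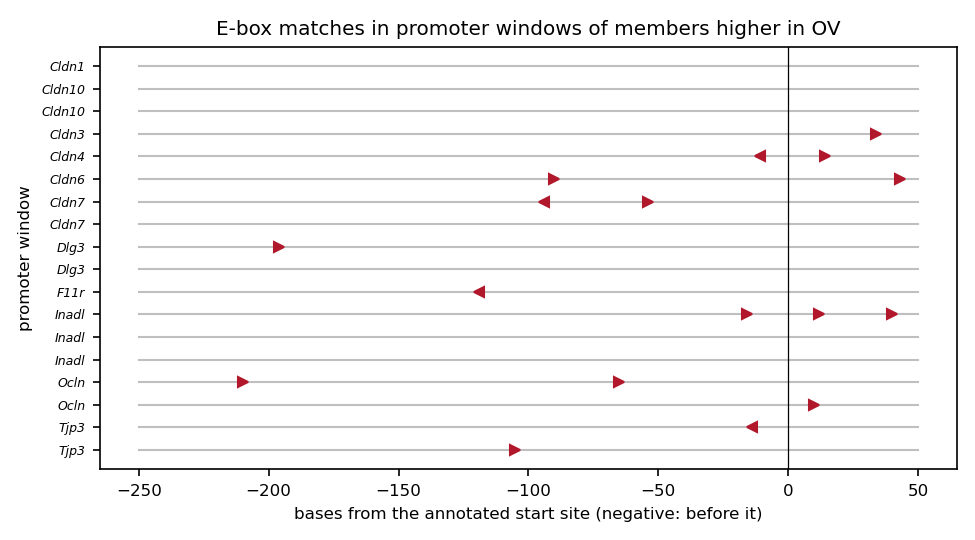
Each grey line is 1 promoter window of a member gene that was higher in OV than in either non-otic group, with the distance in bases from the annotated start site on the x axis and 1 row per window on the y axis, and each arrow marks a CAGGTG match and its strand. Matches lie in windows of 9 of the 11 genes, and the windows of *Cldn1* and *Cldn10* are empty.

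Values below are normalized log2 intensities, and a difference between groups is a difference of their means on this scale. A probe's brightness depends on its sequence, so levels were not compared between probes. The fold Δ is the ratio that a difference stands for. A probe counted as above background where its detection p-value was under 0.01, which held for 11283 to 12160 probes per array. The *q*-value is limma's p for a comparison after Benjamini-Hochberg adjustment over the 25697 probes, and a difference was called at *q* under 0.05. Where no array of a group had the probe above background, the fold Δ is only a bound ("at least"), taken against the higher of the probe's own value and each array's lowest value above background.

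More junction and polarity probes were detected in OV than in either non-otic tissue, and most members that differed were higher there. On the OV arrays 35 to 39 of the 61 member probes exceeded background, with 27 or 28 in periotic tissue and 27 to 29 in embryo-minus-otic tissue. Of all probes, 43.9% to 46.1% did so on OV arrays, 44.8% to 47.3% on periotic and 44.2% to 45.3% on embryo-minus-otic arrays. With a detection p under 0.05 the gap to embryo-minus-otic tissue was narrower. The member counts were then 39 to 41 in OV, 32 or 33 in periotic and 36 to 38 in embryo-minus-otic tissue. Against embryo-minus-otic tissue, 17 member probes of 15 genes were higher in OV (27.9%, with 5.89% of all probes) and 4 probes of 3 genes were lower (6.56%, with 5.51% of all probes). Against periotic tissue, 16 probes of 13 genes were higher (26.2%, with 5.07% of all probes) and 5 probes of 4 genes were lower (8.2%, with 5.15% of all probes). In either direction, 21 member probes were called in each of the OV comparisons (34.4%), with 11.4% of all probes called against embryo-minus-otic tissue and 10.2% against periotic tissue. By at least 1 log2 unit, 4 were called against embryo-minus-otic tissue (with 2.04% of all probes) and 7 against periotic tissue (with 2.07%). Both comparisons share the OV arrays. In both at once, 14 probes of 13 genes were higher in OV (23%, with 3.51% of all probes) and 4 probes of 3 genes were lower (6.56%, with 2.65% of all probes). The genes higher than both included *Cldn1*, *Cldn3*, *Cldn4*, *Cldn6*, *Cldn7*, *Cldn9*, *Cldn10*, *Ocln*, *F11r*, *Tjp3*, *Inadl* and *Dlg3*, and the 3 lower were *Cldn5*, *Cldn11* and *Pard6a*. All 3 OV arrays were above all 6 non-otic arrays at 19 member probes (31.1%, with 6.86% of all probes) and below them at 5 (8.2%, with 5.6% of all probes).

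The median difference over the 61 member probes was 0.12 against embryo-minus-otic tissue and 0.11 against periotic tissue, with 0.0043 and -3.7e-05 over all probes. With median in place of quantile normalization, 13 member probes were higher and 1 was lower against embryo-minus-otic tissue, and of all called probes 1472 were higher and 670 lower, in place of 1513 and 1417. In dissected tissue, more cells of a type and more RNA per cell cannot be told apart.

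**Figure D2:**
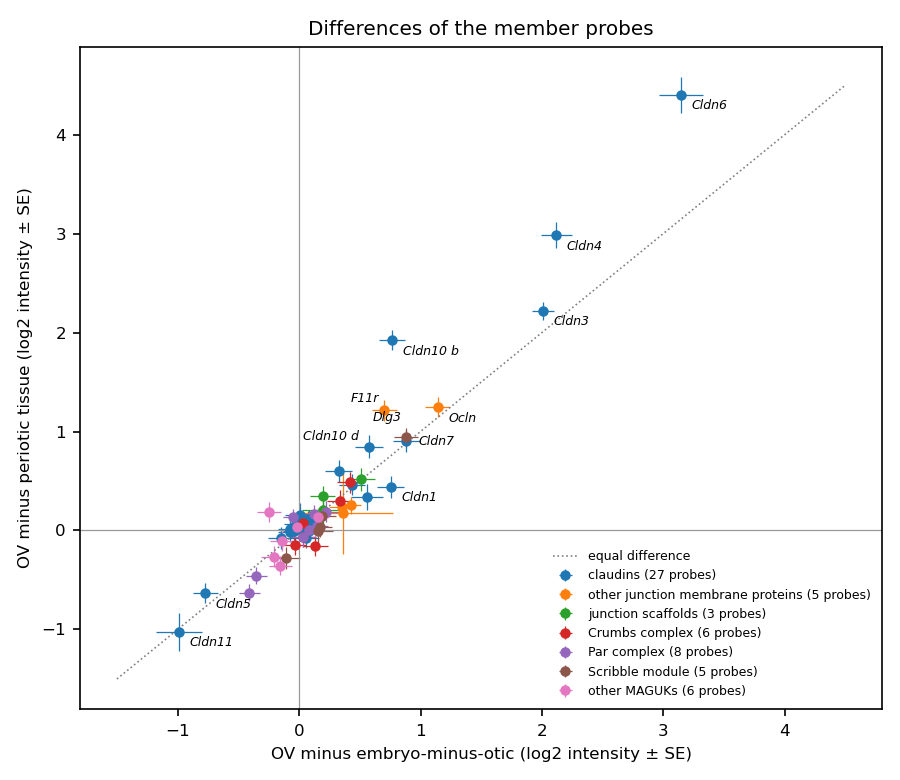
Each point is 1 member probe, coloured by role, with the log2 difference of OV from embryo-minus-otic tissue on the x axis and from periotic tissue on the y axis, and bars of 1 standard error. *Cldn6*, *Cldn4* and *Cldn3* lie at the upper right, *Cldn11* and *Cldn5* at the lower left, and most other probes near 0 on both axes. Both axes use the same OV arrays.

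Claudins were the largest group, with 27 probes of 20 genes. In OV, 9 probes were higher against each non-otic group (33.3%, with 5.89% of all probes against embryo-minus-otic and 5.07% against periotic tissue), and 2 were lower (7.41%, near the 5.51% and 5.15% of all probes). Against both groups at once 8 probes of 7 genes were higher (29.6%, with 3.51% of all probes). *Cldn6*, a claudin known from embryonic epithelia (probe ILMN_2941790, on chromosome 17), ranked 5 of all probes by the OV mean over the larger non-otic mean. It read 12.41, 12.48 and 12.61 on the OV arrays, 8.16, 7.87 and 8.27 on the periotic arrays and 9.61, 8.80 and 9.67 on the embryo-minus-otic arrays. The 3 groups did not overlap, and periotic tissue was the lowest. OV was higher than embryo-minus-otic tissue by 3.14 ± 0.18 (SE, n = 3, limma *q* = 6.7e-09), an 8.84-fold difference. It was higher than periotic tissue by 4.40 ± 0.18 (limma *q* = 1.4e-10), a 21.1-fold difference, and periotic tissue was below embryo-minus-otic tissue (-1.26 ± 0.18, limma *q* = 0.00030).

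*Cldn4*, which tightens the paracellular path in many epithelia (probe ILMN_1223949, on chromosome 5), ranked 34. Its values were 10.34, 10.12 and 10.20 in OV, 7.53, 6.92 and 7.26 in periotic tissue, against 8.16, 7.95 and 8.19 in embryo-minus-otic tissue. The order of the groups was that of *Cldn6*, again with no overlap. The differences were 2.12 ± 0.13 from embryo-minus-otic tissue (4.35-fold, limma *q* = 1.6e-08), 2.98 ± 0.13 from periotic tissue (7.91-fold, limma *q* = 2.9e-10) and -0.86 ± 0.13 between periotic and embryo-minus-otic tissue (limma *q* = 0.00052). *Cldn3*, a barrier-forming claudin of simple epithelia (probe ILMN_2634167, on chromosome 5), ranked 43 and read 8.11, 8.30 and 8.32 in OV. It read 6.03, 5.94 and 6.10 in periotic tissue, where it was above background on no array, and 6.20, 6.19 and 6.32 in embryo-minus-otic tissue, where it was above background on 1 array. OV was higher by 2.01 ± 0.091 than embryo-minus-otic tissue (4.02-fold, limma *q* = 7.4e-10) and at least 4.17-fold higher than periotic tissue (limma *q* = 1.4e-10). With neqc background correction, *Cldn3* was 7.39-fold higher in OV than in embryo-minus-otic tissue.

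*Cldn10*, which forms ion-selective pores and is made in several isoforms, had 4 probes that did not behave alike, lettered a to d by probe identifier. Probe b (ILMN_2515816) read 8.50, 8.34 and 8.56 in OV, 6.46, 6.39 and 6.77 in periotic tissue, against 7.61, 7.73 and 7.75 in embryo-minus-otic tissue. Its groups did not overlap and periotic tissue was the lowest. The differences were 0.77 ± 0.11 from embryo-minus-otic tissue (1.70-fold, limma *q* = 0.00010), 1.92 ± 0.11 from periotic tissue (3.80-fold, limma *q* = 3.6e-09, and 5.93-fold with neqc) and -1.16 ± 0.11 between the non-otic groups (limma *q* = 3.5e-06). Probe d (ILMN_2723576) read 6.83, 6.70 and 7.01 in OV, 6.10, 5.92 and 5.99 in periotic tissue, against 6.22, 6.09 and 6.51 in embryo-minus-otic tissue. OV was higher than embryo-minus-otic tissue by 0.58 (limma *q* = 0.0028) and at least 1.59-fold higher than periotic tissue (limma *q* = 8.2e-05). Probe a (ILMN_1214954) read 6.59, 6.40 and 6.74 in OV, 5.80, 5.98 and 6.15 in periotic tissue, against 6.30, 6.15 and 6.31 in embryo-minus-otic tissue. It was higher than periotic tissue by 0.60 (limma *q* = 0.0015), while the difference of 0.33 from embryo-minus-otic tissue did not pass (limma *q* = 0.074). Probe c (ILMN_2610656) was above background on no array, between 5.56 and 5.80 over all 9. The deposited annotation gives probes a and c the same transcript variant and puts b and d under another search key.

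The other claudins that were higher in OV differed by less than 1 log2 unit. *Cldn7*, a claudin of many epithelial linings, had means of 6.93 ± 0.032 in OV, 6.03 ± 0.11 in periotic tissue and 6.05 ± 0.22 in embryo-minus-otic tissue (SD, n = 3). It was 1.84-fold higher in OV than in embryo-minus-otic tissue (limma *q* = 3.1e-05) and at least 1.68-fold higher than in periotic tissue (limma *q* = 2.4e-05). Both values grew with neqc, to 2.99-fold and 3.11-fold. *Cldn1*, which seals the epidermal barrier, had means of 7.01, 6.57 and 6.26 in OV, periotic and embryo-minus-otic tissue. OV was higher than embryo-minus-otic tissue by 0.75 (limma *q* = 0.00018) and than periotic tissue by 0.44 (limma *q* = 0.015), and the second call was lost without OV replicate 3, without periotic replicate 2, with neqc and with median normalization. *Cldn9*, mutated in a recessive form of deafness, had means of 7.09, 6.63 and 6.65. The differences were 0.44 from embryo-minus-otic tissue (limma *q* = 0.012), lost without OV replicate 2, and 0.46 from periotic tissue (limma *q* = 0.0083), lost without periotic replicate 2. *Cldn12*, with means of 8.76, 8.42 and 8.20, was called against embryo-minus-otic tissue (0.56, limma *q* = 0.0092), which was lost with median normalization, and not against periotic tissue (0.34, limma *q* = 0.14).

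*Cldn5* and *Cldn11* went the other way, with less signal in OV than in either non-otic group. *Cldn5*, the claudin of endothelial cells, had means of 8.26 ± 0.11 in OV, 8.89 ± 0.19 in periotic and 9.03 ± 0.028 in embryo-minus-otic tissue (SD, n = 3). All OV arrays were below all non-otic arrays, with differences of -0.77 ± 0.10 (limma *q* = 6.9e-05) from embryo-minus-otic and -0.63 ± 0.10 (limma *q* = 0.00048) from periotic tissue. Endothelial markers were lower in OV too. *Emcn* (endomucin) differed by -0.98 from embryo-minus-otic tissue (limma *q* = 0.00027), *Pecam1* by -0.61 at its brighter probe (limma *q* = 0.00075), and *Cdh5* by -0.14 without passing (limma *q* = 0.58). Of 14 probes of 9 endothelial genes, 6 were above background on all OV arrays, 10 on all periotic and 8 on all embryo-minus-otic arrays, and their summed intensity was 1505 to 1676 in OV, 1982 to 2244 in periotic tissue and 2244 to 2391 in embryo-minus-otic tissue. The part of the endothelial genes in the *Cldn5* result was not tested.

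*Cldn11*, the claudin of myelin sheaths, of Sertoli cells and, in the mature cochlea, of basal cells of the stria vascularis (probe ILMN_1246139), read 7.04, 7.10 and 7.02 in OV. It read 8.42, 7.41 and 8.39 in periotic tissue, where 1 array lay well below the others, and 7.96, 8.04 and 8.12 in embryo-minus-otic tissue. The OV arrays were below all others and close to each other. The differences were -0.99 ± 0.19 from embryo-minus-otic tissue (limma *q* = 0.0023) and -1.02 ± 0.19 from periotic tissue (limma *q* = 0.0017), so that OV was 1.99-fold and 2.03-fold lower. The call against embryo-minus-otic tissue was lost with median normalization.

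Most of the remaining claudins were not detected. *Cldn2*, *Cldn8*, *Cldn13*, *Cldn16*, *Cldn17*, *Cldn18*, *Cldn19* and *Cldn23* had no probe above background on any array. *Cldn14*, a further deafness gene, was above background on 1 embryo-minus-otic array. *Cldn15*, a pore-forming claudin of the gut, had 1 of 3 probes above background, on all 9 arrays, with group means from 6.46 to 6.58 and no call in any comparison. Probes above background on no array had group means from 5.46 to 6.10, so a difference between groups below that level could not be seen.

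**Figure D3:**
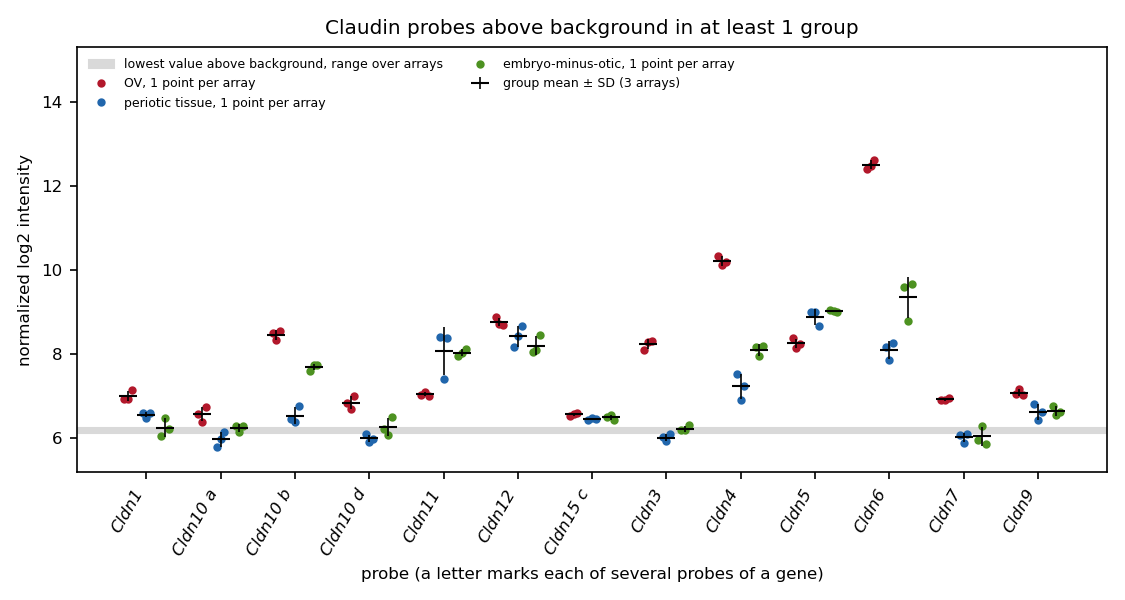
Normalized log2 intensity is on the y axis for the claudin probes that were above background throughout at least 1 group, with 1 point per array, the group mean and its SD, and a grey band for the lowest values above background. The OV points of *Cldn6*, *Cldn4*, *Cldn3* and *Cldn10* b stand clear of both non-otic groups, and those of *Cldn11* and *Cldn5* lie below them.

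Of the other membrane proteins of the junction, *Ocln* and *F11r* were higher in OV than in either non-otic tissue, and *Cxadr* was called against embryo-minus-otic tissue alone. Of 5 probes of 3 genes, 4 were higher against embryo-minus-otic tissue (80%, with 5.89% of all probes) and 2 against periotic tissue (40%, with 5.07% of all probes). *Ocln* encodes occludin (probe ILMN_1226104, on chromosome 13). It read 6.98, 6.99 and 7.24 in OV, 5.83, 5.77 and 5.87 in periotic tissue, against 6.07, 5.97 and 5.74 in embryo-minus-otic tissue. Every OV array had it above background and no other array did. OV was at least 1.81-fold higher than embryo-minus-otic tissue (difference 1.14 ± 0.10, limma *q* = 1.2e-06) and at least 1.85-fold higher than periotic tissue (1.25 ± 0.10, limma *q* = 4.2e-07). With neqc the differences corresponded to 3.96-fold and 4.47-fold.

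*F11r*, the junctional adhesion molecule JAM-A that recruits the Par complex (probe ILMN_2713305), read 7.49, 7.67 and 7.34 in OV, 6.18, 6.33 and 6.34 in periotic tissue, against 6.66, 6.93 and 6.81 in embryo-minus-otic tissue. The groups did not overlap and followed the order of *Cldn6*. OV was higher by 0.70 ± 0.10 than embryo-minus-otic tissue (1.63-fold, limma *q* = 0.00021) and by 1.21 ± 0.10 than periotic tissue (2.32-fold, limma *q* = 6.0e-07, and 3.69-fold with neqc). Periotic tissue was below embryo-minus-otic tissue (-0.51, limma *q* = 0.0066), a call that was lost with median normalization and without normalization.

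*Cxadr*, an adhesion molecule of the junction and the receptor for coxsackie and adenoviruses, had 3 probes. Probe b had means of 9.91, 9.65 and 9.48 in OV, periotic and embryo-minus-otic tissue and was higher in OV than in embryo-minus-otic tissue (0.42, limma *q* = 0.0032) but was not called against periotic tissue (0.26, limma *q* = 0.081). Probe c gave 0.35 against embryo-minus-otic tissue (limma *q* = 0.045), a call that was lost when any 1 array was left out other than embryo-minus-otic replicate 3 or periotic replicate 2, and with neqc or median normalization. Probe a spread widely, with 8.25, 7.35 and 8.46 in OV, 7.92, 6.93 and 8.69 in periotic tissue, against 8.10, 6.72 and 8.17 in embryo-minus-otic tissue, so that replicate 2 was the lowest in every group. No comparison of it was called.

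The scaffolds *Tjp3* and *Tjp1* encode proteins of the zonula occludens family. *Tjp3*, the family member most restricted to epithelia, was above background only in OV at probe b, with a mean of 6.48, at least 1.20-fold higher than in embryo-minus-otic tissue (limma *q* = 0.0077) and at least 1.23-fold higher than in periotic tissue (limma *q* = 0.0070). Its probe a was called against periotic tissue alone (0.35, limma *q* = 0.039), and that call was lost without any 1 of the OV arrays, without periotic replicate 1 or 2 and with median normalization. *Tjp1*, which is widely expressed outside epithelia too, had means of 8.33 ± 0.093, 8.12 ± 0.44 and 8.14 ± 0.22 and was not called in any comparison, with a difference of 0.20 from embryo-minus-otic tissue (limma *q* = 0.60). The difference between *Tjp3* and *Tjp1* was not tested.

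The polarity complexes gave few calls, in both directions. In the Crumbs complex, 1 of 6 probes was higher in OV against each non-otic group (16.7%, with 5.89% of all probes against embryo-minus-otic and 5.07% against periotic tissue). It was probe a of *Inadl*, the multi-PDZ scaffold now named *Patj*, with a mean of 6.48 in OV and no periotic or embryo-minus-otic array above background. OV was at least 1.20-fold higher than embryo-minus-otic tissue (limma *q* = 0.017), a call that was lost without OV replicate 2 and with median normalization, and at least 1.23-fold higher than periotic tissue (limma *q* = 0.0061). *Mpp5*, the Pals1 scaffold that joins Crumbs to Patj, was above background on all 9 arrays at 1 of its 2 probes, with means of 7.17, 7.10 and 7.14 and no call. *Crb3*, the Crumbs protein of epithelia, was above background on 1 OV array and no other, with a difference of 0.34 from embryo-minus-otic tissue that did not pass (limma *q* = 0.064), and *Crb1*, the Crumbs protein of the retina, was above background on no array.

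In the Par complex, no probe was higher in OV by limma at *q* under 0.05 or at an unadjusted p under 0.05. Of all probes, 5.89% were higher by *q* against embryo-minus-otic and 5.07% against periotic tissue. Against each non-otic group 2 of 8 probes were lower, with 5.51% of all probes against embryo-minus-otic and 5.15% against periotic tissue. Both were of *Pard6a*, which encodes the adaptor that binds atypical protein kinase C and Cdc42. Probe b read 8.01, 7.99 and 7.96 in OV, 8.50, 8.72 and 8.62 in periotic tissue, against 8.37, 8.47 and 8.35 in embryo-minus-otic tissue. All OV arrays were below all others, with differences of -0.41 (limma *q* = 0.0045) from embryo-minus-otic and -0.63 (limma *q* = 0.00010) from periotic tissue. Probe a gave -0.35 (limma *q* = 0.014) and -0.46 (limma *q* = 0.0021), and the first of these calls was lost without embryo-minus-otic replicate 2 or OV replicate 2. With median normalization neither probe was called against embryo-minus-otic tissue. *Pard6g* had means of 10.18, 10.24 and 10.14 and *Pard3*, the scaffold of the complex, had means of 6.36, 6.19 and 6.23 at its brightest probe, both without a call. *Pard6b* hovered at the detection limit, above background on 2 OV and 2 periotic arrays, and *Pard3b* was above background on no array.

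In the Scribble module, *Dlg3* was higher in OV and the other 4 probes were not called. Of all probes, 5.89% were higher against embryo-minus-otic and 5.07% against periotic tissue. *Dlg3*, a membrane-associated guanylate kinase on the X chromosome, read 9.39, 9.43 and 9.57 in OV, 8.47, 8.61 and 8.49 in periotic tissue, against 8.76, 8.44 and 8.56 in embryo-minus-otic tissue. All OV arrays were above all non-otic arrays, which overlapped each other. The differences were 0.88 ± 0.098 from embryo-minus-otic tissue (1.84-fold, limma *q* = 1.1e-05) and 0.94 ± 0.098 from periotic tissue (1.92-fold, limma *q* = 5.4e-06). *Llgl1*, the basolateral Lgl protein, had means of 11.86 ± 0.21, 12.14 ± 0.05 and 11.97 ± 0.17 (SD, n = 3), with a difference of -0.28 from periotic tissue that did not pass (limma *q* = 0.17). *Scrib* had means of 8.78, 8.79 and 8.63 at its brightest probe, with no call. *Llgl2*, the Lgl gene most linked to epithelia, is on the array as *Llglh2*, an older symbol that the rule does not take, and was looked up after values were seen. It read 10.47, 10.72 and 10.78 in OV, 8.75, 8.56 and 8.61 in periotic tissue, against 9.76, 9.03 and 9.44 in embryo-minus-otic tissue. OV was higher by 1.25 ± 0.15 than embryo-minus-otic tissue (2.37-fold, limma *q* = 1.9e-05) and by 2.02 ± 0.15 than periotic tissue (4.05-fold, limma *q* = 9.0e-08), with no overlap between the groups. *Dlgh1* and *Dlgh4*, older names of *Dlg1* and *Dlg4*, were not called. No probe carried the symbol *Crb2*, *Cgn*, *Dlg2*, *Dlg5* or *Mpp7*, so these genes were not analysed here.

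The remaining guanylate kinase relatives, 6 probes of *Mpp1*, *Mpp2*, *Mpp3*, *Mpp4* and *Mpp6*, gave no call against embryo-minus-otic tissue by limma, with 11.4% of all probes called. At an unadjusted limma p under 0.05, 1 was lower and none higher, with 2571 lower and 2919 higher among all 25697 probes. *Mpp1*, a membrane protein of red blood cells, had means of 7.20, 7.56 and 7.36 in OV, periotic and embryo-minus-otic tissue and was lower in OV than in periotic tissue (-0.35, limma *q* = 0.024), a call that was lost without OV replicate 1 or 2, without periotic replicate 1 or 2 and with median normalization. The summed intensity of 8 probes of 7 erythroid genes was also lower in OV, at 16425 to 40550, than in periotic tissue, at 64142 to 74641, or embryo-minus-otic tissue, at 84804 to 91772, and 7 of the 8 probes were above background on all OV arrays. The part of erythroid RNA in the *Mpp1* result was not tested. *Mpp6* was lower in periotic than in embryo-minus-otic tissue (-0.43, limma *q* = 0.015), and this call was lost without periotic replicate 1 or 2, without embryo-minus-otic replicate 2 and with median normalization. *Mpp4* was above background on no array.

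**Figure D4:**
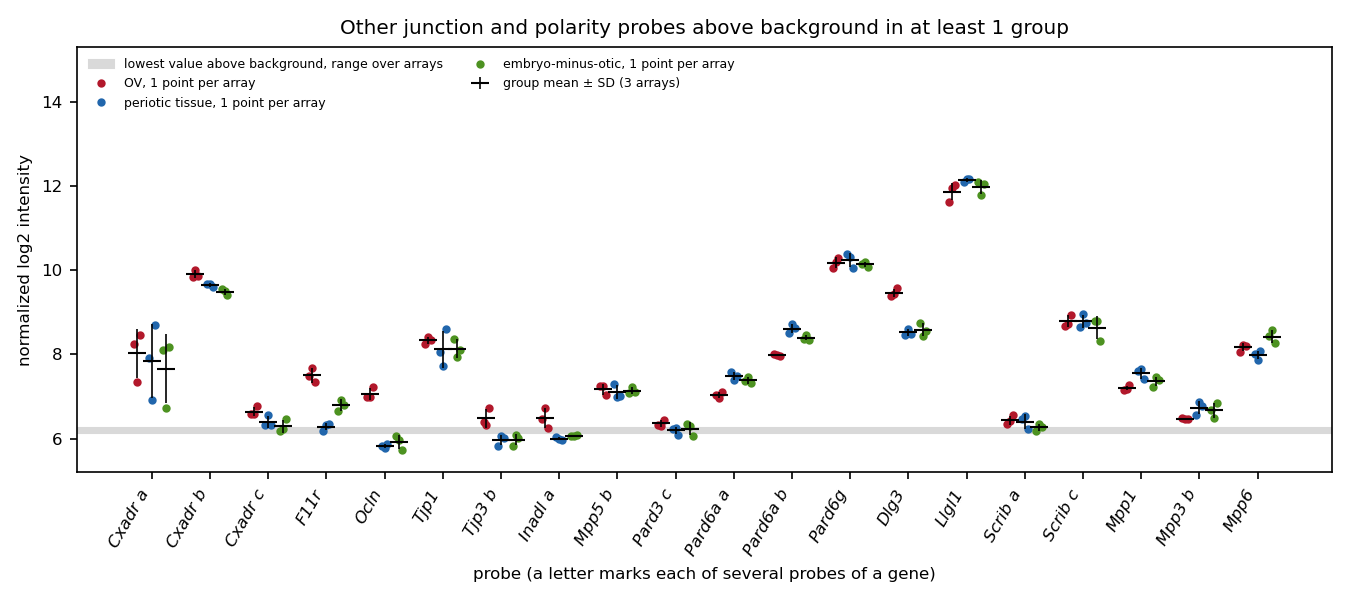
Normalized log2 intensity is on the y axis for the non-claudin probes that were above background throughout at least 1 group, with 1 point per array, the group mean and its SD, and a grey band for the lowest values above background. *Ocln*, *F11r* and *Dlg3* have OV points above all others, *Pard6a* b has OV points below all others, and the points of *Cxadr* a span more than 1 log2 unit within each group.

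Between the non-otic tissues, the members that differed were lower in periotic tissue. No member probe was higher in periotic than in embryo-minus-otic tissue by limma at *q* under 0.05 (0, with 2.86% of all probes), and 5 probes of 5 genes were lower (8.2%, with 2.95% of all probes and 5.81% in either direction). By at least 1 log2 unit, 2 were lower, with 0.891% of all probes. At an unadjusted limma p under 0.05, 3 were higher and 8 were lower, with 2205 higher and 1894 lower among all 25697 probes. The 5 were *Cldn4*, *Cldn6*, *Cldn10* b, *F11r* and *Mpp6*. With median normalization, 3 member probes were lower in periotic tissue, and of all called probes 812 were higher and 315 lower, in place of 736 and 757.

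Over all 3 comparisons, 25 member probes of 20 genes were called in at least 1 (41%, with 16.3% of all probes) and 36 in none. Of these 36, 21 were above background on no array (34.4% of the 61, with 45.9% of all probes) and 8 on all 9 arrays. Over all members, 22 were above background on all 9 arrays (36.1%, with 38% of all probes). For these 8 the difference of OV ranged from -0.21 to 0.36 against embryo-minus-otic tissue and from -0.28 to 0.21 against periotic tissue. Of the 61 probes, 34 (28 genes) were above background throughout at least 1 group.

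General epithelial genes were brighter in OV alongside the junction genes. Their list was chosen with earlier results of these data known. It holds *Prss8*, *Rbm35a* and *Ap1m2*, which the study ranked high in OV on these same arrays, so its sum is not independent of them. Summed over 20 probes of 12 epithelial genes, among them *Cdh1* (E-cadherin), keratins, the protease *Prss8* and the grainyhead factor *Tcfcp2l3* (*Grhl2*), with *Cdh1* higher in OV by 1.32 and 1.73 than in embryo-minus-otic and periotic tissue (limma *q* = 6.5e-07 and 2.5e-08), the intensity was 8473 to 8899 in OV, 1540 to 1905 in periotic tissue and 2534 to 3135 in embryo-minus-otic tissue. Of these probes, 17 were above background on all OV arrays, 5 on all periotic and 8 on all embryo-minus-otic arrays. The order of the groups was that of *Cldn6*, *Cldn4* and *F11r*. Summed over 18 probes of 12 mesenchymal genes, the intensity was 2829 to 3126 in OV, 5387 to 5565 in periotic tissue and 5496 to 6640 in embryo-minus-otic tissue, and 12 of the probes were above background on each OV array. A sum is weighted toward the brighter probes. The median difference of OV over the 18 probes was -0.87 from embryo-minus-otic and -0.14 from periotic tissue. At an unadjusted limma p under 0.05, 14 and 6 of them were lower and 0 higher. Of the mesenchymal genes, *Zfhx1b* (*Zeb2*) was lower in OV at its detected probe. Its differences were -1.11 from embryo-minus-otic and -1.83 from periotic tissue (limma *q* = 2.9e-05 and 1.1e-07). *Snai1* at its detected probe was lower in OV than in embryo-minus-otic tissue (-0.88, limma *q* = 0.0010). From periotic tissue it differed by -0.06 (limma *q* = 0.92). Both belong to the families named above with the E-box, and their part in the junction results was not tested. The other genes of the list are not given singly. For 16 probes of 11 neural genes the summed intensity was 1599 to 1651 in OV, 5627 to 6831 in periotic tissue and 2369 to 2663 in embryo-minus-otic tissue. The 15 probes of 9 otic genes had sums of 7520 to 8230 in OV, 1239 to 1363 in periotic tissue and 1413 to 1479 in embryo-minus-otic tissue. These sums go with the labelled tissue. The list holds *Oc90*, *Fbxo2*, *Lmx1a* and *Gata3*, which the study ranked high in OV on these arrays, so it is no independent check. The part that the share of epithelial cells had in the junction results was not tested.

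**Figure D5:**
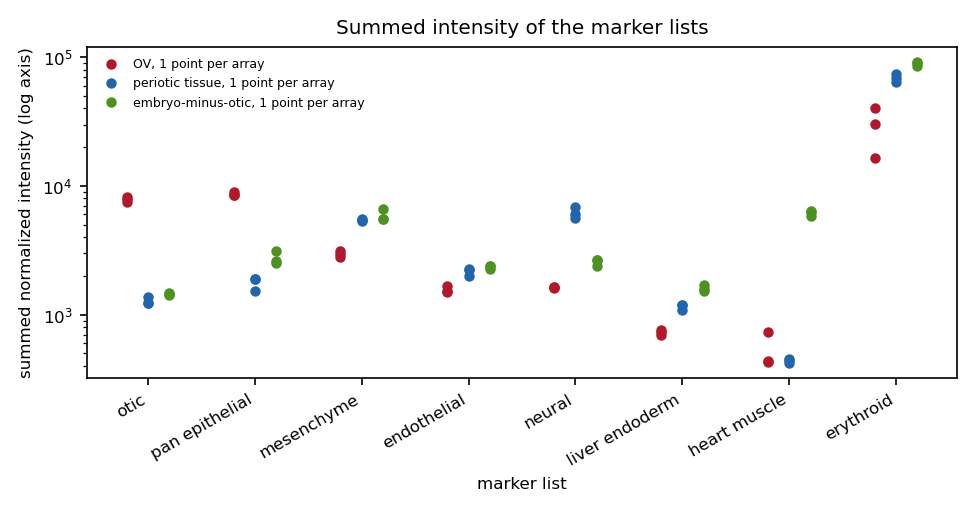
The summed normalized intensity of each marker list is on a log y axis, with 1 point per array and the lists on the x axis. OV arrays are the highest for the otic and epithelial lists and the lowest for the mesenchymal, endothelial, neural, liver and erythroid lists.

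Partners of these complexes outside the rule were read for comparison, as 58 probes of 27 genes. Against embryo-minus-otic tissue 13 were higher in OV (22.4%, with 5.89% of all probes) and 4 lower (6.9%, with 5.51%). Against periotic tissue 11 were higher (19%, with 5.07%) and 5 lower (8.62%, with 5.15%), so that the lower shares were near those of all probes. *Marveld3*, a tight junction membrane protein related to occludin, read 8.05, 8.26 and 8.02 in OV, with means of 5.79 in periotic and 5.91 in embryo-minus-otic tissue. It was above background on the OV arrays only, at least 3.72-fold higher than in embryo-minus-otic tissue (limma *q* = 5.8e-10) and at least 3.80-fold higher than in periotic tissue (limma *q* = 1.7e-10), and it ranked 27 of all probes. This was 1 of 2 probes of *Marveld3*, and the other, above background on 1 OV array, was called against embryo-minus-otic tissue (0.40, limma *q* = 0.0055) and not against periotic tissue (0.25, limma *q* = 0.10).

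*Jam2*, a junctional adhesion molecule of endothelial cells and a relative of *F11r*, went the other way at both of its brighter probes. Probe ILMN_2592881 read 5.84, 5.97 and 5.78 in OV, 8.03, 7.93 and 8.26 in periotic tissue, against 7.24, 7.28 and 7.36 in embryo-minus-otic tissue. It was above background on no OV array, at least 2.13-fold lower than in embryo-minus-otic tissue (limma *q* = 5.9e-08) and at least 3.66-fold lower than in periotic tissue (limma *q* = 3.6e-10). *Prkcz*, the atypical protein kinase C of the Par complex, had a probe above background on no array. At both of its called probes OV was higher than embryo-minus-otic tissue, by 0.76 and 0.67 (limma *q* = 1.0e-05 and 0.00023). *Tiam1*, an exchange factor that acts with Par3, was higher in OV than in embryo-minus-otic tissue by 0.91 (limma *q* = 3.3e-05). *Ildr1*, a protein of tricellular junctions mutated in recessive deafness, was detected on every OV array and on no other array at 2 of its 3 probes. Their OV means of 6.35 and 6.33 were close to the lowest values above background, 6.14 to 6.24 over the arrays. OV was at least 1.10-fold and 1.08-fold higher than embryo-minus-otic tissue (limma *q* = 0.025 and 0.0014). Against periotic tissue it was at least 1.12-fold and 1.11-fold higher (limma *q* = 0.0063 and 0.0048). The third probe was detected on 1 OV array and all 3 periotic arrays and was not called. *Pvrl2*, a nectin of adherens junctions, differed from periotic tissue at 3 probes, with OV higher by 0.80, 0.86 and 0.99 (limma *q* = 6.6e-05, 0.00026 and 1.2e-06). *Jam3* was lower in OV, with differences of -0.49 from embryo-minus-otic and -0.58 from periotic tissue (limma *q* = 0.026 and 0.0094). *Cgnl1*, above background on no OV array, was at least 1.22-fold lower than in embryo-minus-otic tissue (limma *q* = 0.0061) and was not called against periotic tissue (limma *q* = 0.61).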

How the data were processed

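RNA from 9 pools of E10.5 mouse tissue, 3 per group, was hybridized to arrays of 1 colour. The study drew the pools of all 3 groups from the same 3 separate litters, with non-otic tissue taken from the embryos that gave the vesicles. The groups thus share litters, which the main fit did not model. Whether a replicate number marks a litter is not given in the sources used here. The deposited table gave GenomeStudio's average signal of each probe, a raw intensity with no normalization across arrays by the authors. It also gave a deposited detection p-value for each signal, which ranks it against negative control beads. Whether a background was subtracted, and the genome build of the annotation, are not given in the sources used here.

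Groups were taken from the sample titles. Log2 values were taken after a floor of 1, which 0 values fell below, followed by quantile normalization of the 9 arrays. A linear model of the 3 groups was fitted to 25697 probes in limma 3.58.1 (R 4.3.3) with empirical Bayes moderation and Benjamini-Hochberg adjustment within each comparison. With 3 arrays a group, precision is limited by their number, and p-values measure the spread between pools. Probes were not averaged by gene. Of the members, 1 gene enters the counts and is not reported here on its own or drawn in the plots. The steps were tested on simulated data.

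Symbols follow the array's own annotation: 42 were found in a reference gene table on GRCm38.p6 and 1 through a synonym. The members, the lists of partners and markers and the motifs were chosen with earlier results of these data known. Values on every array were given for member probes called in at least 1 comparison with a difference of at least 1 log2 unit and for further probes of those genes. Other called members were given by their means, and uncalled ones by counts, ranges and examples. Partners were named where called with at least 1 log2 unit. Values per array of *Pard6a* b, *Dlg3*, *Cxadr* a and *Llglh2*, and the partners *Prkcz*, *Tiam1*, *Ildr1*, *Pvrl2*, *Jam3* and *Cgnl1*, go beyond this rule and were added after their values were seen.

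Other settings tried were neqc (offset 16), median normalization, none, a filter to probes detected throughout 1 group, fits of 2 groups, a replicate block, a prior with an intensity trend, omission of each array, limma's test against a 1.5-fold change and detection at 0.05. Promoter windows were read from a RefSeq table.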

Additional observations from a re-analysis of the deposited data

How the results depend on the processing

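Of 47 called member differences, 11 kept their call under all 17 alternatives tried for them, and none of the 47 changed direction. The 11 were those of *Cldn3*, *Cldn4*, *Cldn6* and *Ocln* against both non-otic groups, of *Cldn10* b and *F11r* against periotic tissue, and of *Cldn10* b between the non-otic groups. Of the 36 that lost their call at least once, 21 lost it only in the test against a 1.5-fold change or without normalization. Of 196 counts under alternatives, 173 stayed within 1.5 times the reported count. Against a 1.5-fold change, 4 member probes were higher and 0 lower in OV than in embryo-minus-otic tissue, 6 and 0 against periotic tissue, 4 and 0 against both, and 1 was lower in periotic than in embryo-minus-otic tissue, while partner calls came to 2, 4 and 0 in the 3 comparisons. A test against a minimum change calls fewer probes by its construction. Without normalization between arrays the counts were 10 higher and 2 lower against embryo-minus-otic tissue, 3 lower against periotic tissue, 8 higher and 2 lower against both, 3 lower between the non-otic groups, and 9 and 2 partner calls against embryo-minus-otic tissue and between the non-otic groups, and the cause was not tested. Calls lost without normalization included those of *Cldn9*, *Tjp3* and *Inadl* against each non-otic group, and of *Cldn10* d and *Cxadr* b against embryo-minus-otic tissue. With median normalization 1 was lower against embryo-minus-otic tissue, 1 against both and 3 between the non-otic groups, and the cause was not tested.

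Leaving out each array gave 15 to 17 higher and 3 to 4 lower against embryo-minus-otic tissue, 13 to 17 and 4 to 5 against periotic tissue, 12 to 15 and 3 to 4 against both, and 0 to 1 higher and 4 to 5 lower between the non-otic groups. The 1 was *Cldn1* without embryo-minus-otic replicate 2. Partner calls ranged from 14 to 18, 16 to 19 and 2 to 5, with the 2 found without periotic replicate 2. Same-numbered arrays of different groups had deviations from their group means that correlated between 0.008 and 0.18, over 0.1 in 5 of 9 pairs. Differently numbered arrays correlated between -0.14 and 0.049, so same-numbered arrays were slightly more alike. The labels do not say what a number marks, so the main fit did not pair the samples, and pairing was tried as an alternative. With the replicate block, 18 member probes were higher and 4 lower against embryo-minus-otic tissue, 16 and 5 against periotic tissue, 15 and 4 against both, and 0 and 5 between the non-otic groups, and partner calls were 17, 17 and 5. With a detection p under 0.05, 39 in place of 34 member probes were above background throughout at least 1 group.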
